A study of Mus musculus with 8 samples.

Results

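Aminoacyl-tRNA synthetases attach each amino acid to its tRNA, and the genes for these enzymes, with the genes of the complex that holds some of them and of helper enzymes, were followed in mouse aortic smooth muscle cells with and without Hint1. The members were found by gene symbol, as every symbol of the form used for these enzymes (Kars, Kars2 and so on), with Eprs, Farsa, Farsb, Pstk, Sepsecs, Aimp1, Aimp2, Eef1e1 and Aarsd1 added. The search found 43 of the 18533 gene symbols. They comprised 20 synthetases that serve the cytosol, 17 that serve mitochondria, 3 scaffolds of the complex (Aimp1, Aimp2 and Eef1e1), the selenocysteine enzymes Pstk and Sepsecs, and the editing enzyme Aarsd1. The 20 cytosolic enzymes include Gars and Kars, whose single genes also provide the mitochondrial glycyl- and lysyl-tRNA synthetases. The search itself uses symbols and no measured value, and all 43 passed edgeR's filter on low counts.

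The MASMCs were primary cultures of aortic smooth muscle from male mice aged 4 to 6 weeks, either WT (n = 4 samples) or Hint1-/- (n = 4 samples), the latter from mice with a knockout that is not limited to a cell type. The study's methods list C57BL/6J mice and state that littermates were compared, and they give no strain for the Hint1-/- animals, which came from another institute. Samples of each genotype had received the growth factor PDGF-BB at 20 ng/mL for 24 hours, so no untreated sample enters any comparison. RNA was read on a BGISEQ-500, and the deposited values were estimated counts per gene. The sources used here do not say whether the 4 samples of a genotype came from separate mice or cultures, and p-values then measure only the spread between these samples, which may be technical.

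HINT1, a nucleotide-binding protein of the histidine triad family, is a known partner of lysyl-tRNA synthetase, the product of Kars. In mast cells, phosphorylated lysyl-tRNA synthetase leaves the synthetase complex, enters the nucleus and makes diadenosine tetraphosphate (Ap4A), which releases the transcription factor MITF from HINT1. In the cytosol, several synthetases are bound with the 3 scaffolds in the multi-tRNA synthetase complex, while the mitochondrial enzymes come mostly from separate nuclear genes. Many cytosolic synthetase genes are known targets of ATF4, the transcription factor that answers amino acid shortage and binds C/EBP-ATF response elements.

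Promoter sequences are shown first because that element is a feature some members share and the search by symbol did not use. RefSeq promoters (build GRCm38.p6, 250 bases before to 50 after the gene start) were matched by symbol for 32 of the 43 members. The motif TGATGNAA, the core of the C/EBP-ATF response element, was searched on both strands. It was found in 5 of these 32 promoters (15.6%), which were those of Aars, Gars, Iars, Tars and Yars. All 5 were among the 13 cytosolic synthetases with a promoter (38.5%), and it was found in 0 of 14 mitochondrial and 0 of 5 other members. Of the tested genes with a promoter 2.92% held the motif, as did 4.51% of all 27025 genes with a promoter. Each window of 30 bases shown is written 5′ to 3′ on the strand that carries the motif, with the motif in capitals. In the promoters of the alanyl- (Aars), glycyl- (Gars), isoleucyl- (Iars), threonyl- (Tars) and tyrosyl- (Yars) tRNA synthetases the letters read as follows.
Aars, chr8:111033840-111033869, minus strand: tcagagcgctcTGATGAAAagtgacccgct
Gars, chr6:55037960-55037989, minus strand: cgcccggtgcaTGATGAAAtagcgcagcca
Iars, chr13:49682126-49682155, minus strand: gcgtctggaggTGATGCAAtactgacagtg
Tars, chr15:11399655-11399684, plus strand: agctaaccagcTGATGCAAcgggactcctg
Yars, chr4:129189895-129189924, plus strand: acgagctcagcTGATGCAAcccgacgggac
In 4 of the 5 windows shown the motif lay on the strand opposite to the gene, and Yars was the exception. In the windows shown, which are not all those found, the first motif base lay between positions -30 and 10. These positions are counted from the RefSeq gene start, and the first base is that in the direction of the gene. A match of letters is a description of the promoter and does not show binding.

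As a check of the labels, the targeted gene Hint1 was read first. Its estimated counts were 2272, 2336, 2364 and 2301 in WT samples against 713, 748, 778 and 715 in samples labelled Hint1-/-, without overlap (log2 fold change -1.64 with SE 0.0373, edgeR adjusted p = 6.77e-16). Total estimated counts were between 20778077 and 20888041 per sample, and 13535 genes were tested. Among them 21.5% passed an adjusted p of 0.05 (10.2% lower and 11.2% higher in Hint1-/- MASMCs), and 2.83% also passed a fold change of 1.5, the limits of the study. Cell type markers differed between the genotypes. The summed level of 9 smooth muscle markers ran from 1540 to 1690 CPM (counts scaled to library size) in WT and from 1290 to 1380 CPM in Hint1-/- samples, with 7 of the 9 lower and 1, Smtn, higher. That of 6 tested macrophage markers ran from 2070 to 2380 and from 1700 to 1820 CPM, with 5 lower. The 6 fibroblast markers overlapped in sum (8150 to 8980 and 8230 to 8840 CPM), with 3 lower and 3 higher. Most of this sum was Col1a1 and Col1a2 (3690 and 3100 CPM in WT), so it hides the changes of the others. Dcn, Lum and Pdgfra were higher (log2 fold changes 0.83, 0.88 and 0.33). Thy1, Col1a1 and Col1a2 were lower (-0.67, -0.17 and -0.19). The 6 Schwann cell markers were at 44.8 to 50.6 and 11.9 to 13.6 CPM, with 5 lower, all past a fold of 1.5. The 5 tested endothelial markers were low in both genotypes (4.86 to 7.41 and 5.00 to 6.57 CPM), with 0 past the test. The 4 tested cardiac markers were also low in both (1.48 to 2.30 and 5.11 to 7.69 CPM), but 3 were higher and past a fold of 1.5. The part of these markers in the results below was not tested, and in bulk RNA fewer cells of a type and less RNA per cell cannot be told apart.

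Across the synthetase family the differences between genotypes were small, and those that passed the test were all falls. In Hint1-/- MASMCs 9 of the 43 genes (20.9%) were lower at an adjusted p under 0.05, against 10.2% of all genes tested, and 0 were higher, against 11.2%. The 9 were 8 cytosolic synthetases and the scaffold Eef1e1, and their falls were between 6.59% and 10.4%. The other 34 members did not pass the test, of which 25 had a log2 fold change below 0 and 9 above 0. A log2 fold change below 0 was seen for 49.9% of all genes tested. No member passed a fold change of 1.5. The 95% interval of the fold change lay inside a fold of 1.5 in either direction for all 43 members, the widest bounds being -22.5% for Pars2 and 20.9% for Hars2. The median log2 fold change was -0.07 over the 43 members and 0.00 over all genes tested. In 14 members the Hint1-/- values were all lower than the WT values, against 11.0% of all genes tested, and in 0 members did the samples separate the other way, against 11.9%. These 14 were the 9 that passed the test with Yars, Vars, Sars2, Rars2 and Yars2.

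**Figure D1:**
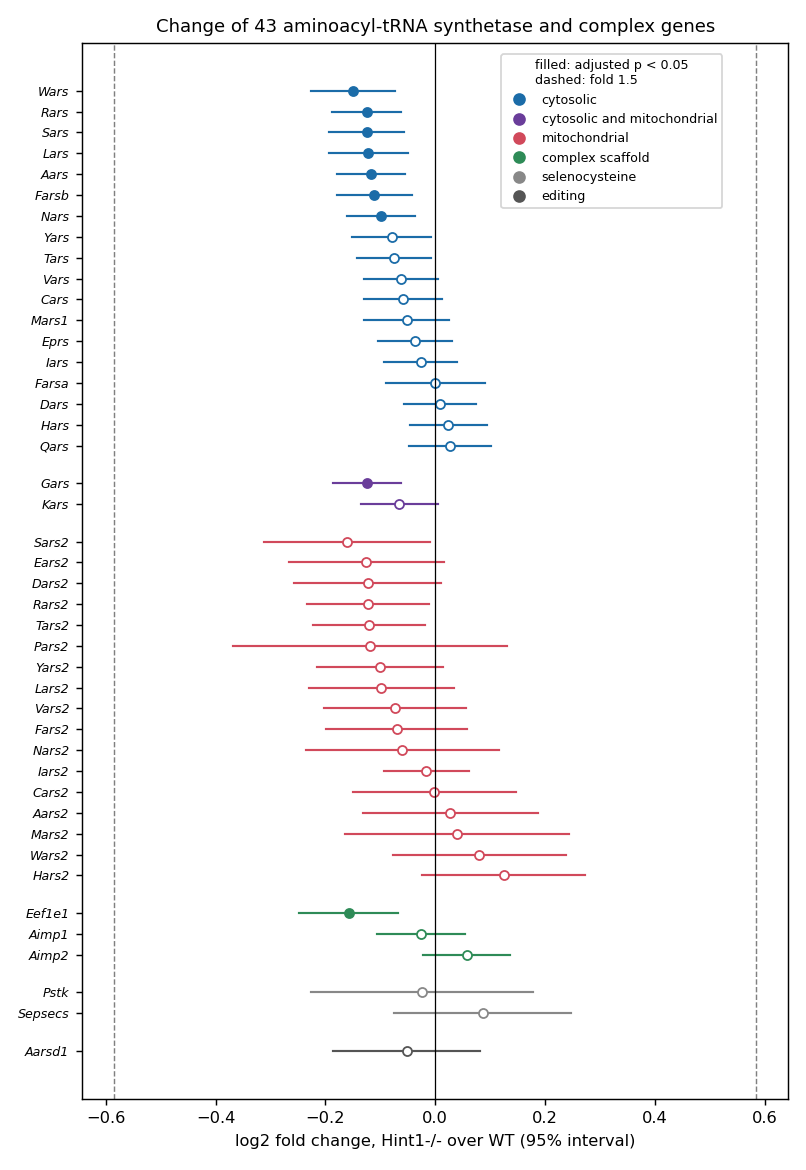
Log2 fold change of each of the 43 genes in Hint1-/- over WT MASMCs (n = 4 each) on the horizontal axis, with its 95% interval as a bar and genes ordered by compartment. The 9 filled points (adjusted p under 0.05) all lie below 0, no interval reaches the dashed lines at a fold of 1.5, and the intervals of the mitochondrial enzymes are wider than most of the others.

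Kars, which encodes the HINT1 partner lysyl-tRNA synthetase and is the only Kars-named gene among the members, lies at chr8:111993443-112011323 in mm10. Its estimated counts were 4367, 4224, 4440 and 4119 in WT and 4132, 4105, 4036 and 3994 in Hint1-/- samples. The genotypes overlapped, since WT replicate 4 lay below Hint1-/- replicate 1. Means were 205 ± 6.96 CPM for WT and 196 ± 3.35 CPM for Hint1-/- MASMCs (SD, n = 4 each, as for the levels that follow). This gave a log2 fold change of -0.07 with SE 0.0331 (adjusted p = 0.18) and a 95% interval from -8.90% to 0.293%. A two-sided exact permutation test of log2 CPM gave p = 0.0857, where the smallest p that 70 assignments allow is 0.0286. A change of Kars mRNA was thus not detected with 4 samples per genotype. Its fitted change of -4.42% was also the median of the 43 members.

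The remaining genes of the Ap4A route did not pass the test. Mitf, the transcription factor held by HINT1, was at 19.3 ± 1.50 CPM in WT against 19.1 ± 1.87 CPM in Hint1-/- MASMCs (log2 fold change -0.02, adjusted p = 0.886). Usf2, another transcription factor linked to HINT1 and Ap4A, had a log2 fold change of -0.05 (adjusted p = 0.299). Nudt2, which encodes the Ap4A hydrolase, had a log2 fold change of 0.06 (adjusted p = 0.559). Fhit, a second Ap4A-cleaving enzyme, had 6 to 14 counts per sample and was not tested. Of the 4 tested genes on this list only Hint1 passed, and as the targeted gene its fall says nothing about the route. The interval of the fold change ran from -11.2% to 9.56% for Mitf, from -8.41% to 1.3% for Usf2 and from -4.96% to 14.4% for Nudt2. Changes within these bounds are not excluded.

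Among the cytosolic synthetases, 8 of 20 (40%) were lower and 0 higher. Their mean counts were all at least 1174, and among the 4609 tested genes whose mean count was 1000 or more, 13.2% were lower and 16.1% higher. Their median log2 fold change was -0.07, and 17 of the 20 had a fold change below 0. The summed level of the 20 genes was 3932, 3894, 3933 and 3904 CPM in the WT samples and 3681, 3732, 3718 and 3687 CPM in the Hint1-/- samples. The 2 genotypes did not overlap in this sum, which in Hint1-/- MASMCs was 94.6% of the WT level.

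Wars, the tryptophanyl-tRNA synthetase gene (chr12:108860030-108894174), had the largest fall among the enzymes that passed the test. Its estimated counts were 2470, 2598, 2474 and 2339 in WT and 2156, 2252, 2277 and 2154 in Hint1-/- samples, with no overlap. Means were 118 ± 4.80 CPM for WT and 107 ± 3.07 CPM in Hint1-/- MASMCs (log2 fold change -0.15, SE 0.0366, adjusted p = 0.0061), a fall by 9.85%. Rars, the arginyl-tRNA synthetase gene of the complex (chr11:35808381-35834506), had counts of 5241, 5211, 5224 and 5265 in WT and 4735, 4822, 4817 and 4679 in Hint1-/- samples. The 4 WT values lay close together, and every Hint1-/- value was lower. Means were 250 ± 1.74 CPM for WT and 230 ± 3.43 CPM in Hint1-/- MASMCs (log2 fold change -0.13, SE 0.0297, adjusted p = 0.00489).

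Sars, the seryl-tRNA synthetase gene (chr3:108424865-108445209), had counts of 5974, 5700, 5889 and 6172 in WT and 5384, 5475, 5424 and 5314 in Hint1-/- samples. The WT samples were more spread than the Hint1-/- samples and did not overlap them (284 ± 10 and 260 ± 3.56 CPM, log2 fold change -0.13, SE 0.0328, adjusted p = 0.00989). Gars, whose gene provides glycyl-tRNA synthetase to cytosol and mitochondria (chr6:55038007-55079500), had counts of 7727, 7594, 7634 and 7549 in WT and 6874, 7015, 7012 and 6861 in Hint1-/- samples. The gap between the genotypes was wider than the range within either of them. Means were 365 ± 4.16 CPM for WT and 335 ± 4.18 CPM in Hint1-/- MASMCs (log2 fold change -0.12, SE 0.0296, adjusted p = 0.00487). Gars and Kars, the pair of genes that serve the cytosol and mitochondria together, thus fell on different sides of the threshold, and the difference between them was not tested.

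The other enzymes that passed the test were Lars (leucyl, log2 fold change -0.12, adjusted p = 0.0151), Aars (alanyl, -0.12, adjusted p = 0.00712), Farsb (the beta subunit for phenylalanine, -0.11, adjusted p = 0.0194) and Nars (asparaginyl, -0.10, adjusted p = 0.0226). Farsa, the alpha subunit with which Farsb forms 1 enzyme, had counts of 1116 to 1224 in WT and 1121 to 1229 in Hint1-/- samples, and its log2 fold change was 0.00 (adjusted p = 0.999, SE 0.0429). The genotypes overlapped almost fully for Farsa and did not overlap for Farsb, and the difference between the subunits was not tested. Of the 12 cytosolic enzymes that did not pass, log2 fold changes ran from -0.08 (Yars) to 0.03 (Qars). Aars shares 14.3% of its exonic bases with Exosc6 on the same strand, whose log2 fold change was -0.02 (adjusted p = 0.895). The calls for Lars, Farsb, Nars and Eef1e1 were lost when certain single samples were left out. Without Hint1-/- replicate 1, the adjusted p was 0.0625 for Lars, 0.0507 for Farsb and 0.0561 for Nars, and 6 of the 9 calls were left.

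**Figure D2:**
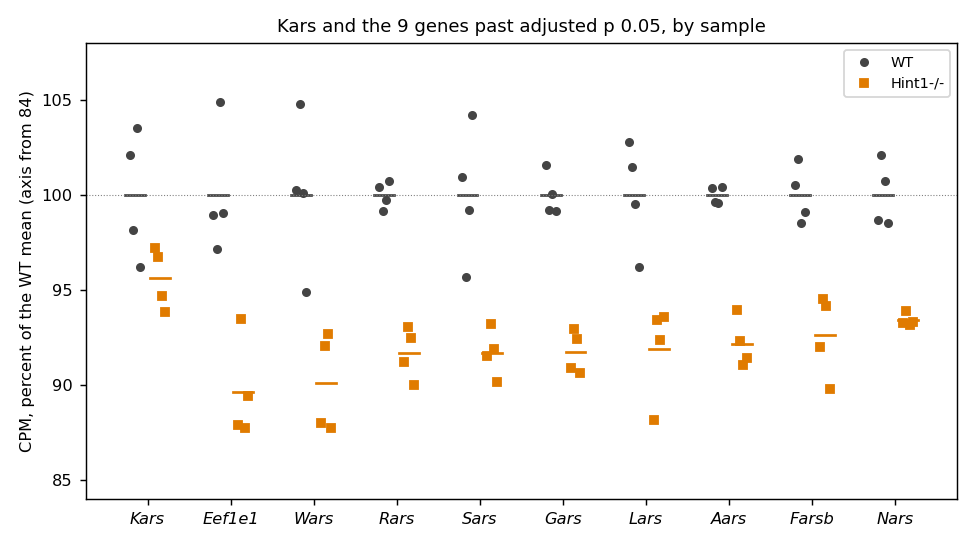
Level of Kars and of the 9 genes past an adjusted p of 0.05 in each sample, as a percent of the gene's WT mean in CPM. Points are samples and short lines genotype means (n = 4 each), and the axis starts at 84 percent. The genotypes overlap for Kars and not for the 9 other genes.

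The multi-tRNA synthetase complex holds 8 of the cytosolic enzymes and the 3 scaffolds, and 3 of these 11 genes (27.3%) were lower (Lars, Rars and Eef1e1), against 10.2% of all genes tested and 13.2% of those with a mean count of 1000 or more. Eef1e1, the scaffold also known as AIMP3 (chr13:38644207-38659058), had counts of 772, 763, 821 and 774 in WT and 682, 724, 683 and 695 in Hint1-/- samples. Each Hint1-/- value was lower than each WT value, with 37.4 ± 1.26 CPM in WT and 33.5 ± 1.00 CPM in Hint1-/- MASMCs (log2 fold change -0.16, SE 0.0429, adjusted p = 0.0123), a fall by 10.4%. Without WT replicate 3 its adjusted p was 0.0561. The other scaffolds did not pass the test, with log2 fold changes of -0.03 for Aimp1 (adjusted p = 0.684) and 0.06 for Aimp2 (adjusted p = 0.316). Aimp2 shares 29.4% of its exonic bases with Eif2ak1 on the opposite strand, and the library's strand is not stated in the sources used here.

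The enzymes inside the complex and outside it are set side by side as counts and medians. The share of lower genes among all tested genes with a mean count of 1000 or more, 13.2%, applies to each count. Of the 8 synthetases in the complex, 2 (25%) were lower, with a median log2 fold change of -0.04. Of the 12 outside it, Gars included, 6 (50%) were lower, with a median of -0.09. By catalytic class, 3 of 9 class I enzymes (33.3%) and 5 of 10 class II enzymes (50%) were lower, leaving out Eprs, which joins a domain of each class. Neither contrast was tested, since the members of a list are not replicates. The summed level of the 11 complex genes was 96.4% of the WT level in Hint1-/- MASMCs (1507 to 1527 CPM in WT and 1445 to 1473 CPM in Hint1-/- samples, without overlap).

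Of the 17 mitochondrial synthetases, 0 passed the test in either direction, while 13 had a log2 fold change below 0. Their median log2 fold change was -0.07, close to that of the cytosolic enzymes, and the values ran from -0.16 for Sars2 to 0.12 for Hars2. In 3 of the 17 (Sars2, Rars2 and Yars2) the Hint1-/- values were all lower than the WT values, against 11.0% of all genes tested. A count this near that share is not read as a result about the mitochondrial enzymes. The lowest adjusted p was that of Tars2 (0.0854). Mean counts were 83.25 to 1660 for the mitochondrial and 1174 to 8844 for the cytosolic genes, and the median SE of the log2 fold change was 0.0671 against 0.0327. Among tested genes with a mean under 1000 counts, 8.69% were lower and 8.72% higher. The summed level of the 17 genes was 314.4, 317.1, 321 and 322 CPM in the WT samples and 307.1, 305.7, 299.2 and 315.3 CPM in the Hint1-/- samples, so that Hint1-/- replicate 4 lay above WT replicate 1.

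**Figure D3:**
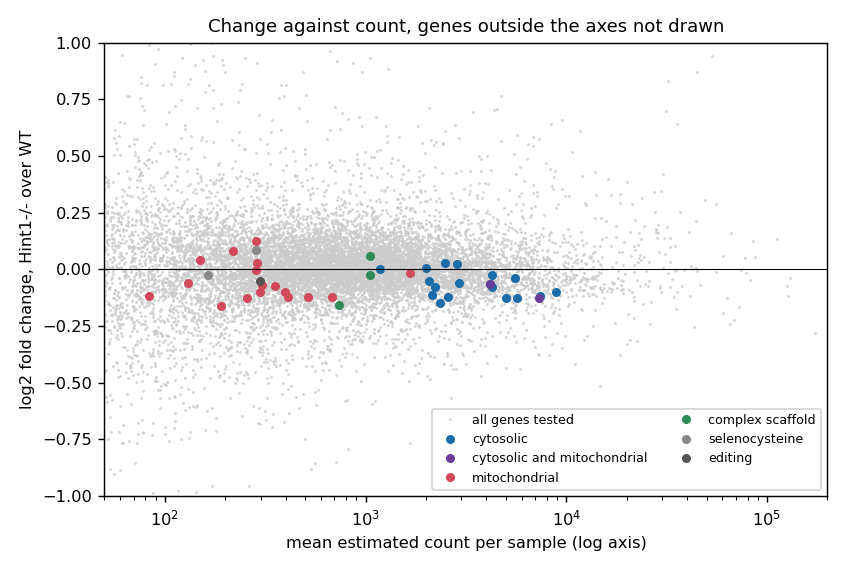
Log2 fold change (Hint1-/- over WT) against the mean estimated count per sample on a log axis, for genes tested in grey and the 43 members in colour by compartment. Tested genes that fall outside the axes are not drawn. The mitochondrial enzymes, at mean counts of 83.25 to 1660, lie left of nearly all cytosolic ones (1174 to 8844).

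For 18 pairs of a cytosolic and a mitochondrial enzyme for the same amino acid, the levels and the changes were compared directly. Levels between genes are given as WT CPM per kilobase of the main GENCODE transcript, which rests on the annotated length and not on the transcript made in these cells. The cytosolic enzyme was higher in 18 of 18 pairs, by 3.00 to 94.1 times with a median of 9.76. The highest cytosolic level was that of Nars (160 CPM per kilobase), followed by Gars (153), Rars (119) and Kars (102). The mitochondrial partner of Nars, Nars2, was at 1.70 CPM per kilobase, which gave the widest gap. The lowest cytosolic level was that of Farsa (30.9), whose partner Fars2 was at 7.10 CPM per kilobase. Among mitochondrial enzymes Iars2 was highest (14.7, with Iars at 46.7 CPM per kilobase), though 22.9% of its exonic bases are shared with Rab3gap2 on the opposite strand. Mars2 was lowest (0.625, with Mars1 at 34.3 CPM per kilobase), on an annotated transcript of 11294 bases.

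**Figure D4:**
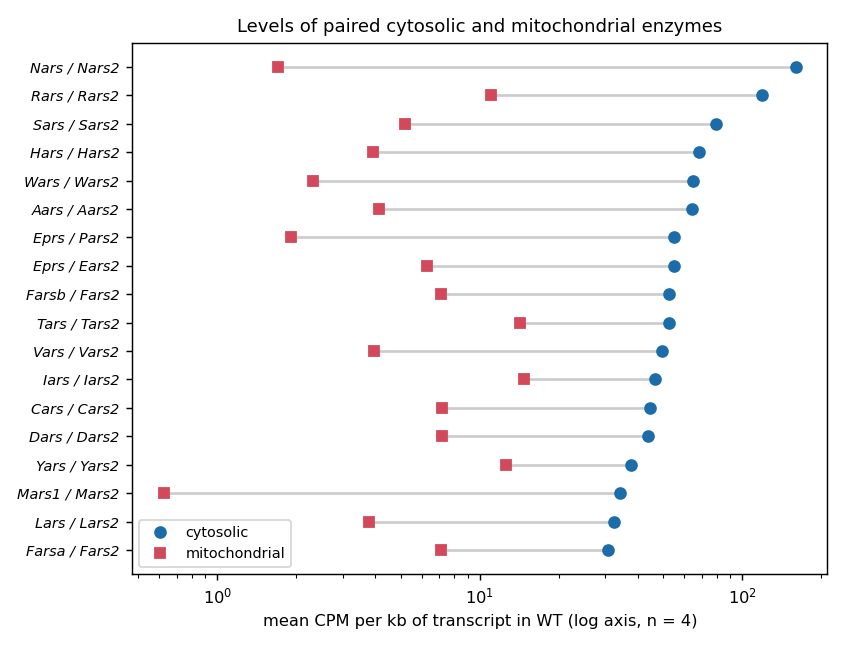
Mean level in WT MASMCs (n = 4), in CPM per kilobase of transcript on a log axis, of the cytosolic enzyme (circle) and the mitochondrial enzyme (square) for the same amino acid. In all 18 pairs the circle lies to the right, from 3.00 times for Yars and Yars2 to 94.1 times for Nars and Nars2.

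The log2 fold change was below 0 for each gene in 13 of the 18 pairs and lower for the cytosolic enzyme in 10. An exact two-sided permutation test of the difference in log2 CPM between partners gave its smallest raw p, 0.0286, for Wars and Wars2. There Wars fell while Wars2 was at 10.2 ± 0.921 CPM in WT against 10.8 ± 0.360 CPM in Hint1-/- MASMCs (log2 fold change 0.08, adjusted p = 0.496), a difference in change of -0.23. Adjusted over the 18 pairs this p was 0.515, and 4 samples against 4 cannot give a raw p under 0.0286. With so few assignments a single pair cannot pass after adjustment, so these tests say little on whether the compartments differ. Across the 18 pairs, in which Eprs and Fars2 each occur in 2, Pearson's r of the paired log2 fold changes was 0.12. The mitochondrial log2 fold changes had SEs of 0.037 to 0.119, large beside their range of -0.16 to 0.12. This r therefore cannot show whether partners change together or apart.

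The remaining members did not pass the test. Pstk and Sepsecs, which act in turn to make selenocysteine on its tRNA, had log2 fold changes of -0.02 (adjusted p = 0.895) and 0.09 (adjusted p = 0.476). Pstk shares 58.8% of its exonic bases with Ikzf5 on the opposite strand, so its counts are uncertain. Aarsd1, which removes wrongly attached amino acids from alanine tRNA, had a log2 fold change of -0.05 (adjusted p = 0.624) and shares 41% of its exonic bases with Gm27029. Tarsl2, a paralog of Tars whose symbol the search does not match, was at 5.23 ± 0.325 CPM in WT against 6.32 ± 1.03 CPM in Hint1-/- MASMCs (log2 fold change 0.27, adjusted p = 0.0981).

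Genes that work beside the synthetases were read from lists of the pathway. Over all genes tested 10.2% were lower and 11.2% higher, and a count of 1 in each of the next 4 lists is near or below what these shares give, so the genes are named as single results and nothing is read from the lists. Among 4 helpers of mitochondrial tRNA charging, 1 was lower, Gatb, a subunit of the enzyme that converts glutamate to glutamine on mitochondrial tRNA. It was at 12.6 ± 0.737 CPM in WT against 10.1 ± 0.833 CPM in Hint1-/- MASMCs (log2 fold change -0.32, adjusted p = 0.00407). Among 7 genes of tRNA proofreading and peptidyl-tRNA release, 1 was lower, Dtd1, which removes D-amino acids from tRNA (log2 fold change -0.29, adjusted p = 0.0238, and 0.0904 with DESeq2). Among 9 genes of translation elongation, 1 was lower, Eef1d, an exchange factor for eEF1A (174 ± 4.24 and 158 ± 2.49 CPM, log2 fold change -0.14, adjusted p = 0.0043). The median log2 fold change of these 9 was -0.07.

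Of 16 genes that sense uncharged tRNA or act on the initiation factor eIF2, 1 was lower and 1 higher. These counts are below the 10.2% and 11.2% of all genes tested, and the median log2 fold change was -0.02. Eif2s1, the alpha subunit of eIF2, fell (log2 fold change -0.10, adjusted p = 0.0237). Eif2ak3, the eIF2 kinase of endoplasmic reticulum stress also called PERK, rose (log2 fold change 0.16, adjusted p = 0.0217, and 0.0791 with DESeq2). Leaving out certain single samples raised the adjusted p of Dtd1, Eif2s1 and Eif2ak3 over 0.05. Eif2ak4, the kinase GCN2 that uncharged tRNA activates, was at 27.1 ± 0.758 CPM in WT against 28.5 ± 1.42 CPM in Hint1-/- MASMCs (log2 fold change 0.07) and did not pass.

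Of the pathway lists, that of ATF4 and its amino acid target genes held the most falls, and 15 of 30 (50%) were lower and 0 higher, against 10.2% and 11.2% of all genes tested. Its median log2 fold change was -0.14. The largest falls were those of Slc7a11, the cystine transporter subunit (167 ± 13.1 and 128 ± 5.90 CPM, log2 fold change -0.38, adjusted p = 1.24e-05), and Atf3, a stress-induced transcription factor (35.9 ± 2.67 and 28.2 ± 1.91 CPM, log2 fold change -0.35, adjusted p = 0.00022). Atf4 itself was at 336 ± 7.49 CPM in WT against 333 ± 9.72 CPM in Hint1-/- MASMCs (log2 fold change -0.01, adjusted p = 0.823) and did not pass the test. It was 1 of 15 genes on the list that did not pass. These data do not measure ATF4 translation or protein, and whether ATF4 had a part in the falls was not tested. The promoter motif shown above was present for 8 of 26 genes of this list with a promoter sequence (30.8%). Among the 43 members it was present for 2 of the 5 genes that passed the test and had a promoter sequence (Aars and Gars). It was also present for 3 of the 9 cytosolic enzymes that did not pass and had one (Iars, Tars and Yars). The 2 sets are unlike, since the first includes the scaffold Eef1e1. Of all tested genes with a promoter 2.92% held the motif.

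**Figure D5:**
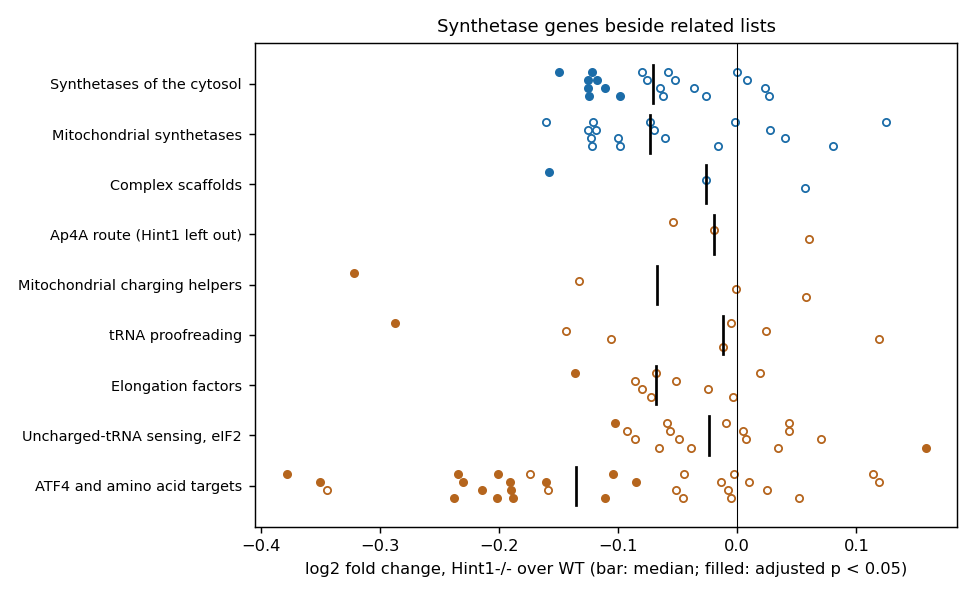
Log2 fold change (Hint1-/- over WT) of each tested gene of the synthetase groups (blue) and of the related lists (brown), with the list median as a bar and genes past an adjusted p of 0.05 filled. The ATF4 list lies lowest by its median (-0.14), and the cytosolic and mitochondrial synthetases share a median of -0.07.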

How the data were processed

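For 8 MASMC samples (4 WT and 4 Hint1-/-, grouped by the genotype label), the authors deposited estimated counts per gene symbol without normalization, and 67.3% to 67.8% of a sample's values were whole. The study's methods name HISAT2 and mm10, whereas the submitters' processing notes list Bowtie2, RSEM 1.3.1 and DESeq2 1.4.5, without roles. Reads were 50 bases long, and strand and gene annotation are not given in the sources used here. Reads of paralogs and overlapping genes may be divided by estimation.

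Counts were rounded to whole numbers, filtered with filterByExpr, scaled by TMM (factors 0.993 to 1.01) and tested two-sided with glmQLFit and glmQLFTest (R 4.3.3, edgeR 4.0.16) with genotype as the only term and Benjamini-Hochberg adjustment over 13535 genes. CPM carried no prior count; log2 CPM in permutation tests used 2. SE is the size of the log2 fold change over the square root of F. The scripts were tested on simulated counts. Depth was 20778077 to 20888041 per sample. A chi-square per gene was 2.10 to 5.47 between samples of a genotype, so no sample was a copy. Same-numbered samples were checked for pairing. Positions, lengths and overlaps came from GENCODE M21 (mm10) by symbol, and promoters from RefSeq. The sequence of 1 motif window is not reported here. Alternatives were other normalizations and filters, DESeq2 1.42.0, limma-voom (limma 3.58.1), removal of length and GC trends, a replicate block, and each sample left out.

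Members, lists and tests were chosen with earlier results of these data known. Genes named were Hint1, Kars, the 5 largest changes each way among members past the test with a mean of at least 50 counts, the other members past it, the highest and lowest level per length in each compartment with partners, and the 2 largest changes each way past the test in each pathway list. Yars, Qars, Farsa, Tarsl2, Wars2, Tars2, Eif2ak4, Atf4 and the cell type markers named singly were chosen after their values were seen. So were other Ap4A route genes, members named for an interval, overlap or motif, and the pair tests.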

Additional observations from a re-analysis of the deposited data

Results flagged for a closer look

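Of 88 groups of 4 samples examined (43 members and Hint1 in each genotype), 5 held a sample whose gap to the nearest other sample, as a share of the group's range, exceeded Dixon's 95% limit, and chance gives about 4.4. All 5 were Hint1-/- samples of genes that did not pass the test between genotypes. For Cars2 (mitochondrial cysteinyl), replicate 2 stood at 244 counts, with 291 to 301 in the remaining samples (ratio 0.843). For Fars2 (mitochondrial phenylalanyl), replicate 2 had 320 against 288 to 293 (ratio 0.858). For Iars2 (mitochondrial isoleucyl), replicate 3 had 1546 against 1665 to 1694 (ratio 0.83). For Qars (glutaminyl), replicate 3 had 2399 against 2511 to 2524 (ratio 0.847). For Eprs (glutamyl-prolyl), replicate 1 had 5225 against 5472 to 5522 (ratio 0.894). Samples 2 and 3 each deviated in 2 genes, and no cause was tested.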

How the results depend on the processing

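The same 9 members passed an adjusted p of 0.05 under each of the 9 alternatives that kept all samples, and over 17 alternatives 0 members became higher, 0 passed a fold change of 1.5 and 0 mitochondrial enzymes passed. Leaving out each sample in turn gave 6 to 9 lower members and 5 to 8 lower cytosolic enzymes (5 without Hint1-/- replicate 1). The share of all genes that passed with each sample left out is not given here. These counts therefore show which calls were kept and are not set against a background. Aars, Gars, Rars, Sars and Wars passed under all 17. Lars was lost without WT replicate 1 (adjusted p = 0.0514), Eef1e1 (0.0561) and Nars (0.0709) without WT replicate 3, Nars without Hint1-/- replicate 2 (0.0502), Farsb without Hint1-/- replicate 4 (0.0637), and Lars, Farsb and Nars without Hint1-/- replicate 1; fewer samples were tested. The adjusted p of Kars ran from 0.0966 to 0.423. With library totals alone the cytosolic median was -0.0829. Signs changed in values near 0: Dars to -0.0026 (upper-quartile), -0.0043 (library totals) and -0.0081 (length and GC trends removed), Farsa to 3e-04 (no filter), and with length and GC trends removed Farsa to 0.0276, Cars2 to 0.0248, Mars2 to -0.0182 and Atf4 to 0.0123. With single samples left out, log2 fold changes ran from -0.0096 to 0.1067 for Mars2, -0.0095 to 0.0833 for Aars2, -0.0269 to 0.02 for Farsa, -0.034 to 0.0607 for Cars2, -0.0943 to 0.0623 for Pstk, -0.0302 to 0.0138 for Iars2 and -0.0232 to 0.0074 for Atf4. The cause of these shifts was not tested. Correlations of same-numbered deviations were -0.045 to 0.0814, and 2 of 4 WT samples correlated best with their own number. These values cannot show whether same-numbered samples belong together, which the labels do not say. With the replicate block 9 members passed. The low counts of mitochondrial enzymes limit what could be detected for them.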
